A study of Mus musculus with 6 samples.

Results

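The nuclear-encoded subunits of the mitochondrial respiratory chain and of ATP synthase were examined in the left ventricle of obese mice given Lira or placebo. Genes were taken by symbol: the Nduf genes of the a, b, c, s and v series, Sdha to Sdhd, the Uqcr genes, the Cox4 to Cox8 genes and the Atp5 genes. Each needed at least 1 probe set on the array that names that gene alone. The rule took 81 of the 18194 genes measured, through 164 probe sets, and 80 of them were bright enough to be tested among 12736 genes. By complex, 33 members belong to complex I, 4 to complex II, 8 to complex III, 17 to complex IV and 17 to complex V. The other 2, Cox7a2l and Ndufa4l2, carry a subunit-like name without being established subunits.

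Both groups were male C57BL/6 mice aged 6 months kept for 16 weeks on a high fat diet, with 3 mice under placebo and 3 under the agent that the labels call Lira. The labels spell out neither that name nor a dose, and no group on ordinary chow was used here, so every value below describes the hearts of animals on the fatty diet. Total RNA of each ventricle was hybridised to 1 Affymetrix mouse array of 45101 probe sets, and the design text speaks of 10 mice, of which 6 were analysed here. The extraction text of the labels names blood as the source of RNA, where the sample description names left ventricle.

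Complexes I to IV pass electrons from NADH and succinate to oxygen and, at complexes I, III and IV, pump protons out of the mitochondrial matrix. Complex V, the ATP synthase, lets the protons flow back and makes ATP. Heart muscle runs almost wholly on this pathway, holds very many mitochondria and uses muscle forms of several complex IV subunits beside the forms found in most tissues.

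The deposited intensities are linear and scaled to a 2% trimmed mean of 150 on each array, so all values are relative to the other transcripts of the same array, and the median over all probe sets ran from 28.6 to 39.6. Ratios of the 3′ to the 5′ control probe sets were alike in both groups, at 1.55 to 1.67 under placebo and 1.63 to 1.74 under Lira for actin. Cardiomyocyte genes were bright on every array (Myh6, the main adult mouse ventricular myosin, had a mean signal of 32447 under placebo and 35228 under Lira). Red blood cell markers were near the floor, with Hba-a1 at 15.1 and 12.3. Fewer cells of a type and less RNA per cell cannot be told apart in tissue of this kind.

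No respiratory chain or ATP synthase gene passed an adjusted p of 0.05 between Lira and placebo (limma, Benjamini-Hochberg over all 12736 genes), where 0.0550% of all genes did. At an unadjusted p under 0.05, 1 member of 80 was called, the complex I subunit gene Ndufb1, against 6.00% of all genes. The 3 Lira arrays lay wholly on one side of the 3 placebo arrays for 3 members, Atp5a1 and Uqcrb above and Cox8a below, which is 3.75% of the members against 11.5% of all genes (5.99% higher and 5.46% lower). The difference was above 0 for 47 members and below 0 for 33, whereas 52.0% of all genes were above 0. After quantile normalization the split turned to 31 above and 49 below, so the balance of signs has no settled direction. None of the 3 members without overlap kept its separation after quantile normalization, median centring or averaging of probe sets. The median log2 difference was 0.010 over the members and 0.0085 over all genes tested.

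The members are among the brightest genes of the ventricle, and their signals were tightly held from mouse to mouse. A mean signal of 10000 or more was reached by 52 of the 80 members and by 137 of all 12736 genes. The median standard error of a log2 difference was 0.086 over the members, 0.095 over all 1438 genes whose signal averaged 1000 or more, and 0.16 over all genes. Of the 73 members with a mean signal of at least 1000, none passed an unadjusted p of 0.05 in limma, against 9.74% of all genes that bright. All 73 of them had a 95% interval of their difference within 1.5-fold in either direction, and for 67 of them it lay within 1.25-fold and for 58 within 1.2-fold. Among all 1438 genes that bright, 95.7% had an interval within 1.5-fold, 61.0% within 1.25-fold and 36.9% within 1.2-fold. The outermost ends of these intervals were 31.0% lower for one member and 33.8% higher for another. They hold for the brightest probe set of each gene. Other bright probe sets of Atp5o, Cox6c, Uqcrb and Uqcr10 gave differences outside the interval of their gene. Whether signals this bright still respond in proportion to the RNA was not tested. The intervals also rest on the variance trend of the fit, and their counts were not repeated without it. Without the trend the unadjusted p of Atp5a1 rose from 0.0792 to 0.207 in limma at the same difference. That of Cox6a2 rose from 0.0668 to 0.189.

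**Figure D1:**
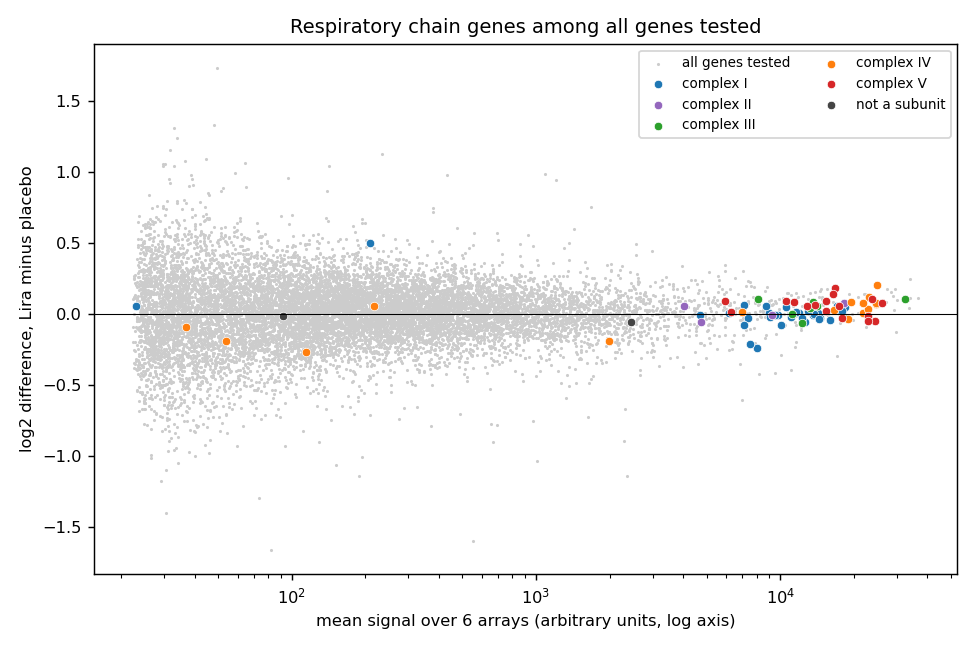
Log2 difference between Lira and placebo (vertical axis) against the mean signal over the 6 arrays (horizontal log axis, arbitrary units), with all 12736 genes tested in grey and the 80 members in colour by complex. Most members sit at the bright end of the array and close to 0, with Ndufb1 at 0.50 and Cox7c at -0.27 as the outermost.

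Promoter windows show what part of the members share short motifs of nuclear factors known to bind many respiratory genes. RefSeq windows of the assembly GRCm38.p6, from 250 bases before to 50 after a start, matched 66 of the 81 members and were searched on both strands. The NRF1 motif, the palindrome in capitals in the Cox6a1 stretch below, stood in the windows of 4 members (6.06%) against 2.21% of all tested genes with a window. The ERR motif AAGGTCA, bound by the estrogen-related receptors, stood in 8 (12.1%) against 3.9%, and the YY1 motif AAGATGGCG in 6 (9.09%) against 3.37%. At least 1 of the motifs was in 17 members (25.8%) against 949 of 10239 tested genes (9.27%), and Atp5k held both an NRF1 and an ERR match. These are letter matches in a short window and say nothing about binding in these hearts. The stretches below are shown because each holds a match in a member whose signals are given later, with the motif in capitals and the sequence read along the gene's own strand.
Cox6a1, NRF1, chr5:115349091-115349140, minus strand: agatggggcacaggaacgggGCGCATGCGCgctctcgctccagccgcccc
Atp5g2, NRF1, chr15:102671060-102671109, minus strand: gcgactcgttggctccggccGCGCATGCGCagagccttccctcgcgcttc
Atp5g3, ERR, chr2:73911352-73911398, minus strand: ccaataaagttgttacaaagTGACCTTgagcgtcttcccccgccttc
Ndufb2, ERR, chr6:39592364-39592410, plus strand: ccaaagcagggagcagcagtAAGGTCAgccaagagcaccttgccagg
Atp5j, YY1, chr16:84835036-84835084, minus strand: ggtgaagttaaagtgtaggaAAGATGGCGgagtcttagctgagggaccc
In the Atp5g3 stretch the motif lies on the opposite strand, so the capitals read TGACCTT.

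Complex I, which oxidises NADH and hands the electrons to ubiquinone, had 16 members above 0 and 17 below, with a median log2 difference of -0.0062. Its 14 members of the N and Q modules, the arm in the matrix where NADH is oxidised and ubiquinone reduced, had 6 above and 8 below. The 19 members of the membrane arm, which pumps the protons, had 10 above and 9 below. Neither arm stood away from 0, with medians of -0.0089 and 0.0006.
The matrix arm begins with the subunits that carry the flavin and the iron-sulfur clusters. Ndufv1, which binds NADH, had signals of 11636, 11328 and 11557 under placebo and 10764, 12579 and 11503 under Lira. The placebo signals all lay inside the Lira range, and the log2 difference was 0.01 ± 0.08 (SE). Ndufs1, the largest iron-sulfur subunit, read 6839, 7066 and 7011 under placebo and 7258, 7021 and 7545 under Lira, with 1 Lira mouse inside the placebo range. Its difference of 0.06 ± 0.08 (SE) lay within the spread. The core subunits Ndufv2, Ndufs3, Ndufs7 and Ndufs8 had differences from -0.08 (Ndufs3) to 0.02 (Ndufv2).
Ndufa2, an accessory subunit of the matrix arm, had the lowest difference of complex I. It read 7061, 7980 and 11149 under placebo and 6757, 7902 and 7097 under Lira, means of 8730 ± 2145 and 7252 ± 588 (SD, n = 3 each). Placebo mouse 3 alone was above all others, and the difference of -0.24 ± 0.14 (SE) had an adjusted p of 0.861 in limma. Ndufb6, an accessory subunit of the membrane arm, read 7014, 7714 and 9451 under placebo and 7271, 6928 and 6521 under Lira. Again placebo mouse 3 was the highest and 1 Lira mouse lay inside the placebo range. The limma difference was -0.21 ± 0.10 (SE, adjusted p 0.827), and a second probe set of Ndufb6 gave -0.0082.
Ndufb1, a small membrane-arm subunit, had the highest difference of all members and a dim signal on its 1 probe set. It read 215, 149.8 and 148.6 under placebo and 204.7, 261.8 and 272.4 under Lira. Means were 171 ± 38.0 and 246 ± 36.4 (SD, n = 3 each), and placebo mouse 1 lay above Lira mouse 1, so the groups overlapped. The log2 difference was 0.50 ± 0.16 (SE, 95% interval 0.14 to 0.85), with an unadjusted p of 0.00967 and an adjusted p of 0.631 (limma). Over the alternative settings its adjusted p ran from 0.445 to 0.999. Ndufb2, a membrane-arm subunit with the ERR match printed above, read 8172, 8438 and 9145 under placebo and 7992, 9586 and 9203 under Lira, with overlap and a difference of 0.05 ± 0.09 (SE). Ndufb4, another membrane-arm subunit, had mean signals of 22.8 and 23.5 on the probe set naming it alone, close to the dimmest genes tested. Of the probe sets that name Ndufb4 together with related genes, one read 9902 ± 666 under placebo and 9914 ± 539 under Lira, and the other 7761 ± 1122 and 7680 ± 443 (SD, n = 3 each). Ndufa11 and Ndufs6, which share all their probe sets with related genes and so are not members, read 7797 and 10612 under placebo and 7488 and 10035 under Lira.

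Complex II, succinate dehydrogenase, feeds electrons from the Krebs cycle into the chain and is the one complex with no subunit from mitochondrial DNA. All 4 of its genes were measured, 2 above 0 and 2 below, with a median log2 difference of 0.022. Sdha, the flavoprotein that oxidises succinate, read 9575, 9318 and 8892 under placebo and 8457, 9561 and 9598 under Lira, a difference of -0.01 ± 0.08 (SE). Sdhb, the iron-sulfur subunit, read 17074, 18349 and 18032 against 17902, 20490 and 18010, a difference of 0.08 ± 0.08 (SE). In Sdhb the Lira mouse 2 stood above the rest while the other Lira mice lay inside the placebo range. The membrane anchors Sdhc and Sdhd differed by 0.06 ± 0.09 and -0.06 ± 0.08 (SE). Sdhc read 3724, 3925 and 4163 against 4137, 4356 and 3790, and Sdhd 4860, 4655 and 5063 against 4546, 4613 and 4806. Both pairs of groups overlapped. A second, dimmer probe set of Sdhd gave -0.37, and with its probe sets averaged Sdhd moved to -0.21, at an unadjusted p of 0.048 and an adjusted p of 0.912 in limma.

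Complex III, which passes electrons from ubiquinol to cytochrome c, had 5 members above 0 and 3 below, with a median log2 difference of 0.047. Uqcrb, which binds ubiquinone, was the brightest of them on its probe set and the one member of the complex without overlap. It read 30660, 31694 and 31058 under placebo and 32106, 35872 and 32270 under Lira, means of 31137 ± 521 and 33416 ± 2129 (SD, n = 3 each). Every Lira mouse lay above every placebo mouse, by little except in Lira mouse 2. The log2 difference was 0.10 ± 0.08 (SE, adjusted p 0.891 in limma). It turned to -0.006 after quantile normalization, and a second, dimmer probe set of Uqcrb gave -0.13, so no direction is settled.
The Rieske iron-sulfur protein Uqcrfs1 read 11956, 12425 and 13209 under placebo and 11149, 12899 and 11866 under Lira, a difference of -0.07 ± 0.08 (SE). The core protein Uqcrc1 read 13976, 13756 and 12047 against 13298, 14918 and 13870, a difference of 0.08 ± 0.09 (SE). Both sets of groups overlapped, and Uqcrc1 and Uqcrfs1 had opposite signs. Uqcr10, a small accessory subunit, had the highest difference of the complex at 0.11 ± 0.08 (SE), and each of its 3 probe sets gave a value above 0. The probe set of intermediate brightness read 1316, 1163 and 1218 under placebo and 1450, 1677 and 1689 under Lira, a log2 difference of 0.38 with no overlap. The brightest probe set, used for the test, read 7948, 7504 and 7965 against 7738, 8762 and 8720 and did overlap.

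Complex IV, cytochrome c oxidase, reduces oxygen to water. Of its 16 tested members, 11 were above 0 and 5 below, with a median log2 difference of 0.027, and Cox7b2 was too dim to be tested, at signals of 11.9 to 33.5. Cox4i1, the form of subunit 4 found in most tissues, read 22922, 24381 and 24984 under placebo and 24393, 28205 and 23384 under Lira, a difference of 0.07 ± 0.09 (SE). Cox5a read 20723, 21231 and 23593 against 21196, 23920 and 20575, a difference of 0.0024 ± 0.086 (SE). Neither gene, each a nuclear subunit around the catalytic core, separated the groups. Cox4i2, the lung form of subunit 4, and Cox6b2, the testis form of subunit 6b, were dim, with mean signals of 38.9 and 58.5 under placebo and 35.2 and 49.6 under Lira. Cox6b1, the common form of subunit 6b, was bright and differed by 0.03 ± 0.07 (SE). The lowest difference of the complex, -0.27 ± 0.18 (SE) in Cox7c, came from a dim probe set at 128 ± 34.0 and 102 ± 10.3 (SD, n = 3 each) and had an adjusted p of 0.871 in limma.
Muscle and common forms of subunits 6a, 7a and 8 were then compared within each array, since the heart holds both forms. Cox6a2, the muscle form of subunit 6a, had the second highest difference of the 80 tested members. It read 22778, 24648 and 21734 under placebo and 26588, 30491 and 22925 under Lira, means of 23054 ± 1476 and 26668 ± 3784 (SD, n = 3 each). Lira mice 1 and 2 lay above all placebo mice and Lira mouse 3 among them, for a log2 difference of 0.20 ± 0.10 (SE) and an adjusted p of 0.827 in limma. A second bright probe set of Cox6a2 gave 0.011. Cox6a1, the common form, read 6729, 7005 and 7126 against 6534, 6717 and 7813, a difference of 0.01 ± 0.09 (SE).
Cox8a, the common form of subunit 8, was the one member that was lower under Lira without overlap. It read 1921, 1942 and 2507 under placebo and 1745, 1880 and 1904 under Lira, means of 2123 ± 333 and 1843 ± 85.6 (SD, n = 3 each). The gap between the lowest placebo and the highest Lira signal was small, with placebo mouse 3 far above the rest. The log2 difference was -0.19 ± 0.11 (SE, 95% interval -0.43 to 0.04, adjusted p 0.861 in limma). The groups of Cox8a overlapped after quantile normalization, after median centring and with its probe sets averaged, and a second bright probe set overlapped too, at -0.086. Cox8b, the muscle form, read 17770, 18750 and 20085 against 18690, 21952 and 19426, a difference of 0.08 ± 0.09 (SE). Cox8c, the testis form, was dim at 213 and 222.
Within each array, the log2 ratio of Cox8b to Cox8a probe signals was 3.20, 3.26 and 2.99 under placebo and 3.41, 3.53 and 3.34 under Lira. All 3 Lira ratios lay above all placebo ratios, with a mean difference of 0.28. The ratio of Cox7a1, the muscle form of subunit 7a, to Cox7a2, the common form, was -0.17, -0.10 and -0.16 under placebo and -0.32, -0.23 and -0.21 under Lira, all 3 lower, with a mean difference of -0.11. The ratio of Cox6a2 to Cox6a1 overlapped, at 1.76, 1.81 and 1.61 against 2.02, 2.18 and 1.55. With 3 mice a group the exact two-sided permutation test cannot go below 0.1. It gave 0.1 for the Cox8 pair, 0.1 for the Cox7a pair and 0.4 for the Cox6a pair, or 0.15, 0.15 and 0.4 after Benjamini-Hochberg adjustment over the 3 pairs. These ratios mix the response of different probe sets, so their level has no meaning, and the pairs were computed after the members' values had been seen. The difference in the muscle-to-common ratio was above 0 for subunit 8 and below 0 for subunit 7a, so the signs were opposite. With other bright probe sets of the same genes the difference ranged from 0.17 to 0.28 for subunit 8 and from -0.11 to -0.088 for subunit 7a, and from 0.0008 to 0.38 for subunit 6a. The groups were then separate in 1 of 2 combinations for subunit 8, 2 of 2 for subunit 7a and 1 of 4 for subunit 6a.

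**Figure D2:**
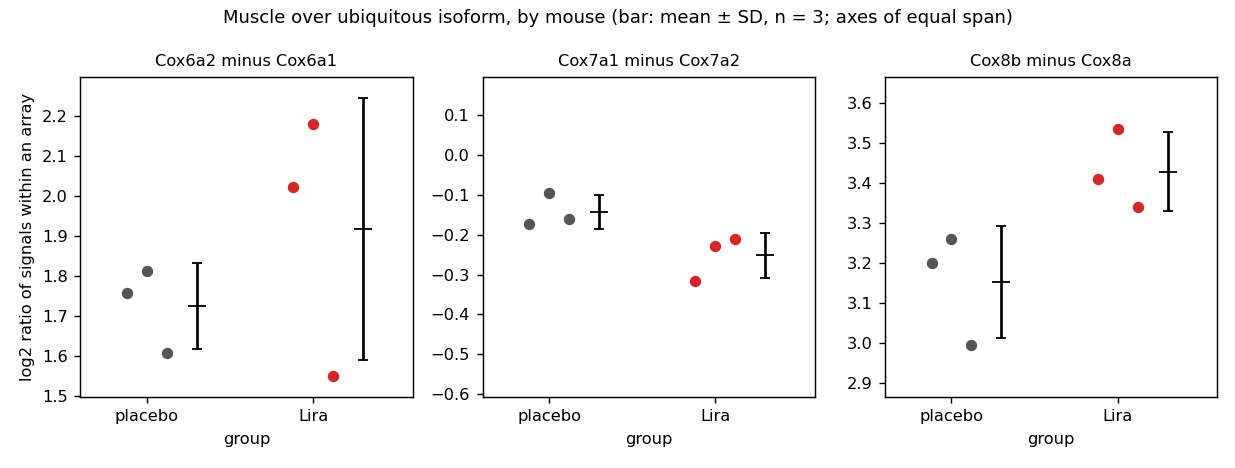
Log2 ratio of muscle form to common form within each array (vertical axis) for subunits 6a, 7a and 8 of complex IV, with 1 point per mouse, 3 mice under placebo and 3 under Lira, and a bar for the mean ± SD. The vertical axes span the same range of log2 units, and the groups separate upward for Cox8b over Cox8a and downward for Cox7a1 over Cox7a2 while those of Cox6a2 over Cox6a1 overlap.

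Complex V, the ATP synthase, had 13 of 17 members above 0, with a median log2 difference of 0.058. Its F1 head, where ATP is made, had 4 of 5 members above 0 and a median of 0.081. The stalk and the membrane part, Fo, had 9 of 12 above 0 and a median of 0.055. No member of the complex passed an unadjusted p of 0.05 in limma, and the median of the complex was 0.010 without Lira mouse 2 and 0.023 after quantile normalization.
Atp5a1, the alpha subunit of the F1 head, read 16561, 17194 and 13626 under placebo and 17396, 18433 and 17498 under Lira, means of 15794 ± 1904 and 17775 ± 572 (SD, n = 3 each). All Lira mice were above all placebo mice, and placebo mouse 3 was far below the rest. The log2 difference was 0.18 ± 0.09 (SE, 95% interval -0.02 to 0.38), with an unadjusted p of 0.0792 and an adjusted p of 0.841 in limma. A second bright probe set gave 0.094 and a dim one gave -0.28. Without placebo mouse 3 the difference was 0.07. Atp5b, the catalytic beta subunit, read 24938, 24772 and 24295 under placebo and 22448, 27512 and 21948 under Lira, a difference of -0.05 ± 0.09 (SE). Its placebo signals lay close together, with Lira mouse 2 above and the other Lira mice below them. The gamma, delta and epsilon subunits of the head, Atp5c1, Atp5d and Atp5e, had differences of 0.08, 0.09 and 0.08 with groups that overlapped.
The ring of subunit c that turns in the membrane is made from Atp5g1, Atp5g2 and Atp5g3, which encode the same mature protein with different import sequences. Atp5g1 read 16547, 17020 and 17448 under placebo and 16452, 19767 and 16924 under Lira. Atp5g2 read 5578, 5398 and 6230 against 5929, 6054 and 6306, and Atp5g3 read 21973, 24730 and 21665 against 24082, 26982 and 22524. All 3 had differences above 0, of 0.05, 0.09 and 0.10 with SEs of 0.09, 0.08 and 0.09, and in all 3 the groups overlapped. With probe sets averaged, Atp5g2 moved to 0.40 (unadjusted p 0.0609 in limma), its other probe sets being near the floor at mean signals of 10.8 and 17.7, and Atp5g1 gave 0.038. Atp5j, a stalk subunit with the YY1 match printed above, read 14166, 14756 and 15791 under placebo and 15323, 17209 and 15012 under Lira, with overlap and a difference of 0.09 ± 0.08 (SE).
Atp5o, the stalk subunit OSCP that joins the head to the stator, had probe sets that disagreed. The one used read 14805, 15193 and 16740 under placebo and 16404, 18955 and 16131 under Lira, a difference of 0.14 ± 0.09 (SE, adjusted p 0.867 in limma). The other read 5153, 5821 and 8484 against 4191, 4802 and 4057, a log2 difference of -0.55 with no overlap. The direction for Atp5o therefore depends on the probe set. A probe set of Atp5j2, an Fo subunit, was dim and higher under Lira, at 109, 115 and 148 against 190, 232 and 215, while the bright one gave -0.03 ± 0.09 (SE).

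**Figure D3:**
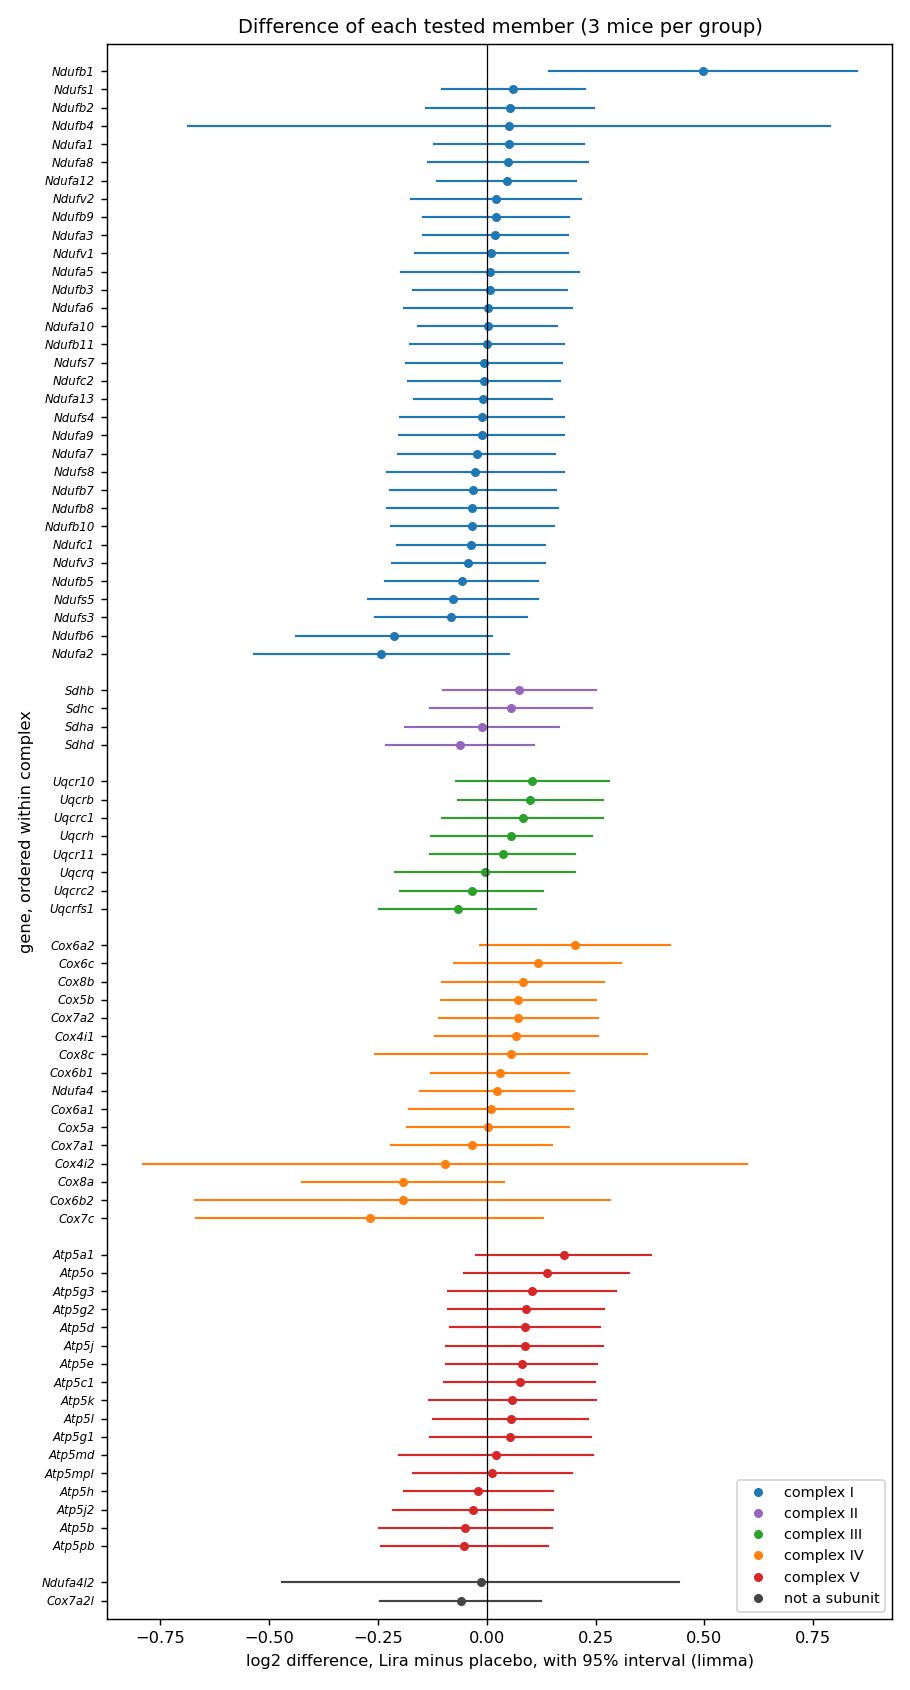
Log2 difference between Lira and placebo for each of the 80 tested members, ordered within complexes, with its 95% interval from limma. The interval of Ndufb1 lies above 0 and those of the other tested members include it, and the bright members have intervals far narrower than the dim ones.

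Across all members, 48 had more than 1 probe set, and for 7 of these the probe sets gave differences of opposite sign, each beyond 0.1 (Ndufs4, Sdha, Uqcrb, Cox6c, Cox7c, Atp5a1 and Atp5o). In Uqcrb, Cox6c and Atp5o both probe sets were bright. The test of Cox6c, a small structural subunit of complex IV, used the probe set at 0.12 ± 0.09 (SE), and its other probe set gave -0.34. Of the 127 probe sets with a mean signal of at least 1000, 71 were above 0 and 56 below, with a median of 0.0098, and 121 lay within 0.2 of 0. Cox7a2l, a factor that joins complexes III and IV, differed by -0.06 ± 0.09 (SE), and Ndufa4l2, a paralog of Ndufa4, by -0.01 ± 0.21 (SE) at a dim signal. Ndufa4 itself, once placed in complex I and now in complex IV, differed by 0.02 ± 0.08 (SE).

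The members' signals shifted together from array to array. Over the 73 bright members, the mean log2 deviation from each gene's mean was -0.050, -0.0265 and 0.056 on the placebo arrays and -0.056, 0.093 and -0.016 on the Lira arrays. Lira mouse 2 thus stood highest and Lira mouse 1 lowest, with placebo mouse 3 next to the top. Lira mouse 2 held the highest signal of 45 of the 80 members, where it held that of 21.8% of all genes and 13.7% of genes with a mean of 1000 or more. Placebo mouse 3 held the highest of 19, beside 19.4% of all genes and 30.5% of the bright ones, and Lira mouse 1 of 0, beside 15.3% and 9.46%. The lowest signal was that of Lira mouse 1 for 28 members and of placebo mouse 1 for 26. These arrays were lowest for 15.9% and 15.2% of all genes, and for 21.4% and 14.8% of the bright ones.
The complexes differed in which mouse stood highest. For complex I, placebo mouse 3 and Lira mouse 2 each held the highest signal of 13 members, with mean deviations of 0.10 and 0.052. For complex V, Lira mouse 2 held 13 and placebo mouse 3 held 3, with mean deviations of 0.14 and 0.024. Complexes III and IV were like complex V, with mean deviations of 0.12 and 0.13 in Lira mouse 2. Averaged by group over the bright members, complex I lay at 0.0095 ± 0.081 under placebo and -0.0095 ± 0.061 under Lira (SD, n = 3 each). Complex V lay at -0.026 ± 0.044 and 0.026 ± 0.097, so for both the distance between the groups was smaller than the SD among the Lira mice. In complex V the distance of 0.052 was larger than the SD among the placebo mice. The same held for complex III, at a distance of 0.035 with SDs of 0.014 under placebo and 0.091 under Lira. In complexes I, II and IV the distance was smaller than both SDs.
Lira mouse 2 also stood highest for cardiomyocyte markers, with a mean deviation of 0.22 where the other arrays lay between -0.071 and 0.0035, and it had the highest median signal of all arrays. The part of either in the members' values was not tested. Placebo mouse 3, second for the members, was at -0.07 for the cardiomyocyte markers. Without Lira mouse 2, 32 members were above 0 and 48 below, and their median was -0.025. After quantile normalization, which gives all arrays the same distribution, the mean deviation of the bright members in Lira mouse 2 was 0.0009. Lira mouse 2 then held the highest signal of 15 members, and placebo mouse 3 that of 27.

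**Figure D4:**
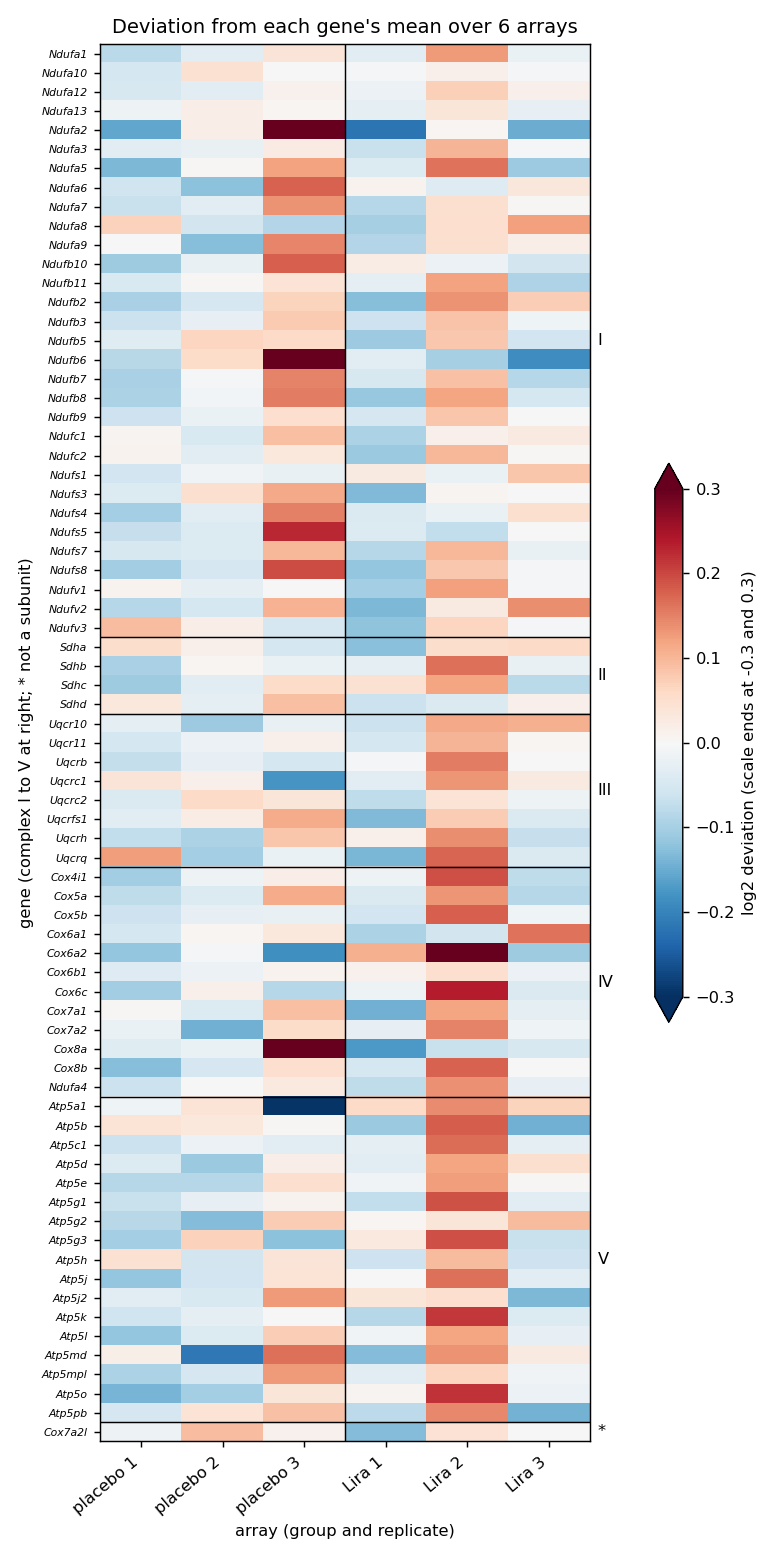
Heat map of the log2 deviation of each of the 73 bright members (rows, grouped by complex) from its mean over the 6 arrays (columns, 3 placebo and 3 Lira mice), red above and blue below that mean, with colours ending at -0.3 and 0.3. The column of Lira mouse 2 is mostly red in complexes III to V, and that of placebo mouse 3 is mostly red in complex I, where its mean deviation is 0.10.

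**Figure D5:**
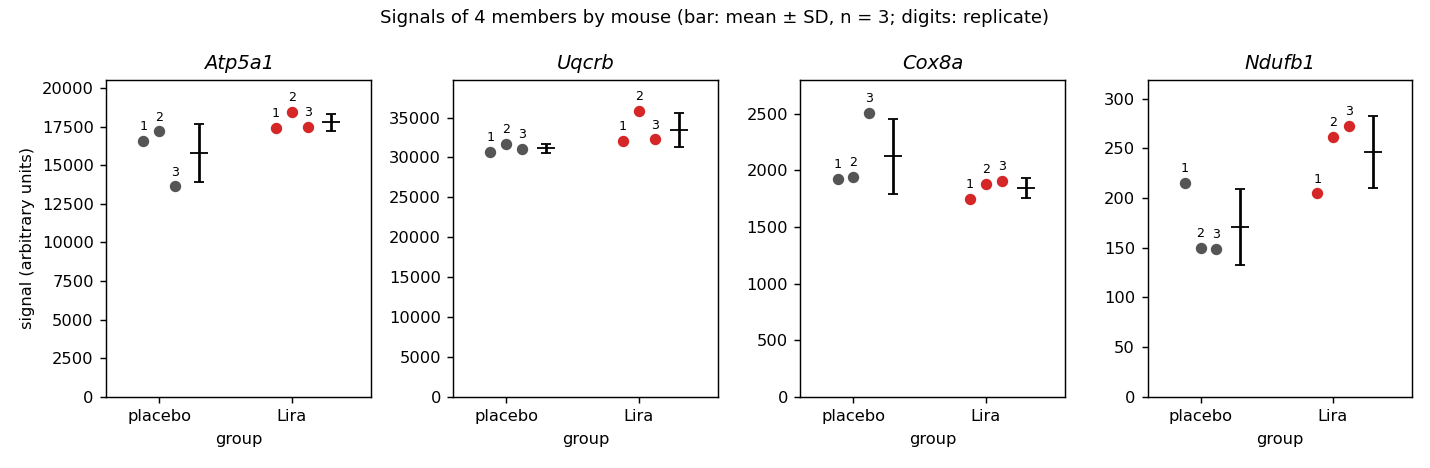
Signal (vertical axis from 0, arbitrary units) of Atp5a1, Uqcrb, Cox8a and Ndufb1 in each mouse, with 1 numbered point per mouse and a bar for the mean ± SD (n = 3). All 3 Lira points lie above the placebo points for Atp5a1 and Uqcrb and below them for Cox8a, while those of Ndufb1 overlap.

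The other genes of the pathway were read from lists of carriers, assembly factors, Krebs cycle enzymes and nuclear factors. Of 20 carriers and further subunits listed 4 were tested, and of these 1 was above 0 and 3 below, with none past an unadjusted p of 0.05 in limma. The list also holds the subunits encoded by mitochondrial DNA, and none of them is among these 4, so no value here describes them. Cycs, the cytochrome c that carries electrons from complex III to complex IV, read 30937 ± 2054 under placebo and 28370 ± 2494 under Lira (SD, n = 3 each), a log2 difference of -0.13 ± 0.09 (SE). Atpif1, the inhibitor of ATP synthase run in reverse, read 3149 ± 640 and 2763 ± 288, a difference of -0.17 ± 0.13 (SE). Cyc1 and Ndufab1, the cytochrome c1 of complex III and the acyl carrier protein of complex I, differed by -0.01 and 0.02.
Assembly factors, which insert cofactors and join subunits without staying in the complex, had 15 of 45 tested genes (49 listed) above 0 and 30 below, with a median log2 difference of -0.046. None passed an adjusted p of 0.05, and 1 higher and 4 lower passed an unadjusted p of 0.05 (limma), against 2.87% and 3.13% of all genes. Cox15, which makes the heme A of cytochrome c oxidase, had the smallest p. It read 425, 395 and 606 under placebo and 281, 309 and 211 under Lira, means of 476 ± 114 and 267 ± 50.7 (SD, n = 3 each). All Lira mice lay below all placebo mice. The log2 difference was -0.79 ± 0.17 (SE, 95% interval -1.16 to -0.42), with an unadjusted p of 0.000437 and an adjusted p of 0.267 in limma. The adjusted p ran from 0.14 to 0.917 over the alternatives, and with the mean of the gene's probe sets the difference was -0.22. Sdhaf3, an assembly factor of complex II, read 491, 469 and 526 against 377, 433 and 391, a difference of -0.30 ± 0.11 (SE, adjusted p 0.703 in limma).
Krebs cycle genes, which supply NADH and succinate, had 7 of 13 above 0 and a median of 0.010. The lowest p values of this list belonged to Idh2, the mitochondrial NADP-dependent isocitrate dehydrogenase, at 0.16 ± 0.08 (SE), and Suclg1, the alpha subunit of succinyl-CoA ligase, at -0.15 ± 0.09 (SE). Neither passed the unadjusted threshold, and citrate synthase, Cs, differed by 0.01 ± 0.08 (SE).
Nuclear factors of respiratory genes had 9 of 14 above 0 and a median of 0.021. Esrrb, an estrogen-related receptor, read 268, 170 and 204 under placebo and 157, 83.7 and 157 under Lira, a difference of -0.65 ± 0.22 (SE, unadjusted p 0.00981, adjusted p 0.631 in limma). Its groups did not overlap. Gabpa, a subunit of the GABP factor that binds respiratory gene promoters, read 431, 446 and 416 against 497, 484 and 496, a difference of 0.19 ± 0.10 (SE). Ppargc1a, the coactivator that drives mitochondrial biogenesis, Esrra, the estrogen-related receptor alpha, and Tfam, which packages mitochondrial DNA, differed by -0.05 ± 0.16, -0.03 ± 0.12 and -0.11 ± 0.10 (SE).
Among markers of cell types that the tissue could hold, 11 of 12 cardiomyocyte genes were above 0, with their summed signal at 292382 to 307361 under placebo and 289801 to 361313 under Lira. Summed smooth muscle signals were 1748 to 2017 and 2049 to 3979, leukocyte signals 2608 to 3227 and 2817 to 3671, and atrial signals 2787 to 3218 and 1618 to 2268. By gene, 2 of 4 smooth muscle, 5 of 5 leukocyte and 1 of 3 atrial markers were above 0. The smooth muscle sum was mostly Acta2, at 0.75 ± 0.23 (SE), while Myocd was at -0.29 ± 0.12, and the atrial sum was mostly Nppa, at -0.67 ± 0.13, while Myl4 was at 0.27 ± 0.17. The atrial markers Myl7 and Sln were too dim to test, at means of 8.97 and 18.3 under placebo and 2.36 and 17.2 under Lira. The atrial sum thus says little beyond Nppa. Fat markers summed to 17005 to 18618 and 17161 to 19624, and this sum was mostly Fabp4, at means of 16881 and 17331. Adipoq averaged 12.4 and 9.55, and Ucp1, the marker of brown fat, 3.47 and 7.36. Of the 3 fat markers tested, 2 were above 0. Of the other lists, in which red blood cell genes were all too dim to test, 6 of 7 endothelial, 4 of 7 fibroblast and 1 of 4 skeletal muscle genes were above 0. None of the marker genes tested passed an adjusted p of 0.05 in limma, and the part of any of these cells in the members' values was not tested.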

How the data were processed

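For each probe set of an array the authors deposited 1 signal intensity on a linear scale. The tool named in the submitters' processing notes is Affymetrix Expression Console. The summarisation algorithm is not given in the sources used here. No detection calls were used. A probe set was given a gene where the platform annotation names 1 gene alone (34945 probe sets, 18194 genes), and 932 with several genes were named for none. Each gene was read from its brightest probe set as log2(signal + 16), which understates differences of dim genes. The dimmest 30% of genes by mean were dropped, leaving 12736 with a mean signal of at least 22.4. Lira was compared with placebo over all these genes in limma 3.58.1 under R 4.3.3 (eBayes with variance trend after lmFit, two-sided tests, Benjamini-Hochberg at 0.05), and the script was tested on simulated data. The number of arrays, 3 in each group, limits the precision. The labels do not say whether mice shared a litter or cage.

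Members and lists were chosen with earlier results of these data known. Named are members past the threshold, up to 4 per complex without overlap between groups, a set list of catalytic subunits and tissue isoforms, members outside the filter or with probe sets of opposite sign, and up to 2 genes of each other list. Members with the outermost differences, the subunits beside them and the further genes of the other lists were named after their values were seen. Groups follow the agent named in the labels. Alternatives covered quantile normalization, median centring, filters, pseudocounts, averaging over each gene's probe sets, variance settings, array weights, a replicate block and leaving out each mouse. Promoter sequences are RefSeq's (GRCm38.p6), and a missing window leaves a member out of the motif counts.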

Additional observations from a re-analysis of the deposited data

How the results depend on the processing

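No member passed an adjusted p of 0.05 in limma under any of the 17 alternatives, and the lowest adjusted p of a member ran from 0.4454 to 0.9994. The count of members at an unadjusted p under 0.05 was 1 as reported. It was 3 after quantile normalization (Ndufb1, Atp5b and Ndufb6, beside 6.71% of all genes), 4 when each gene's probe sets were averaged (Ndufb1, Atp5j2, Uqcr10 and Sdhd, beside 5.37%), 2 with a replicate block (Ndufb1 and Cox6a2, beside 5.98%) and from 1 to 4 when a mouse was left out. It was 4 without placebo mouse 1 (Ndufb1, Cox8a, Ndufa2 and Ndufb6, beside 6.74%) and 2 without placebo mouse 2 or Lira mouse 3. The replicate numbers do not pair the mice, since deviations of mice with the same number correlated at -0.037, 0.085 and -0.088, and the block left 761 genes at an unadjusted p under 0.05 where 764 were reported. The count of members without overlap was 3 as reported, 7 after quantile normalization (12.2% of all genes), 2 after median centring (7.42%) and 2 with averaged probe sets (10.4%), of which 0 were among the 3 reported. It ran from 7 to 15 when a mouse was left out, where 20.1% to 22.7% of all genes did not overlap. The median over the members stayed between -0.025 and 0.046, and that of complex V between 0.010 and 0.106. Without placebo mouse 3, 58 members were above 0 and 22 below, without Lira mouse 1 59 and 21, and without placebo mouse 1 38 and 42. The cause of these moves was not tested. Dim members (under a signal of 1000) have wide intervals, and no detection call tells them from background.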
